A study of Mus musculus with 6 samples.

Results

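The p53 pathway genes described here are 35 listed genes, regulators of p53 and well-known transcriptional targets of it. They were taken by symbol from a deposited expression table of 29587 gene rows, and all 35 had a row. Of these, 31 reached 1 RPKM (reads per kilobase of gene, scaled to the reads of the library) in at least 3 of the 6 libraries and entered the test, as did 12015 genes in all. The 4 members below that level were Perp, Rrm2b, Gdf15 and Pidd1. Plk3 reached 1 RPKM in 3 old libraries and 1 young one, so the old group alone met the requirement for it.

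The study sequenced messenger RNA from osteoblasts killed with ultraviolet light, and its title places it in work on the clearance of dying osteoblasts during aging. There were 3 libraries from old mice and 3 from young mice, and the comparison was old against young. Both groups were prepared alike: bone fragments were cultured for 3 days, adherent cells were passaged 3 times and named bone marrow mesenchymal stem cells, osteogenic medium was given for 3 days, and the resulting cells were exposed to ultraviolet light for 0.5 hours until most took up a dye that living cells exclude. The ages of the mice in weeks or months, their strain and their sex were not given in the sources used here, and no label says that replicates are different animals or cultures. The p-values therefore rest on library-to-library spread, part or all of which may be technical. Every library was exposed, no unexposed library was analysed here, and the values therefore compare ages among exposed cells and do not measure a response to ultraviolet light.

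p53, encoded by Trp53 in the mouse, is a transcription factor held at a low level by the ubiquitin ligase Mdm2 and its partner Mdm4. Damage to DNA, ultraviolet lesions included, activates kinases that free p53 from Mdm2, after which it binds DNA and raises genes of cell cycle arrest, repair, metabolism and death, and Mdm2 itself, which closes a feedback loop. In bone, p53 and Mdm2 in the osteoblast lineage are known to affect proliferation and differentiation of osteoblast precursors. p53 protein is controlled largely by its stability, so the transcript of Trp53 is not a measure of p53 activity.

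p53 binds DNA as pairs of a 10-base half-site made of 3 purines, a C, 2 bases that are A or T, a G and 3 pyrimidines, a pattern that reads the same on both strands. RefSeq promoter windows on GRCm38.p6, each of 250 bases before a transcription start and 50 bases from it on, were found for 31 of the 35 members, in 38 windows. A perfect match to the p53 half-site consensus lay in 14 of these 38 windows (36.8%), which belong to 13 members. Over all 32851 windows the share was 8.36%, and over the 9898 windows of tested genes 6.57%. The windows of Aen overlap and hold the same match, so its match counts in both. A match describes these letters and shows no binding. Trp53inp1, Rrm2b, Perp and Zmat3 had no window.

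The windows of 2 members, Cdkn1a and Mdm2, are shown whole, 5′ to 3′ on the gene's own strand, with perfect half-site matches in capitals. Cdkn1a encodes the cell cycle inhibitor p21, and its window is chr17:29090729-29091028 on the plus strand. Mdm2 lies on the minus strand, and its window is chr10:117710709-117711008.
Cdkn1a: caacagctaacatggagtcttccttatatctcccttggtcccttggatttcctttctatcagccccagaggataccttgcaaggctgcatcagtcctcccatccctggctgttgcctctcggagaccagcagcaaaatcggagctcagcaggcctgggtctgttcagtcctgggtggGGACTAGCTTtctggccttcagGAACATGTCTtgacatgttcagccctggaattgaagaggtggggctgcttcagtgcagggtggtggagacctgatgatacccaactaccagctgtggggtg
Mdm2: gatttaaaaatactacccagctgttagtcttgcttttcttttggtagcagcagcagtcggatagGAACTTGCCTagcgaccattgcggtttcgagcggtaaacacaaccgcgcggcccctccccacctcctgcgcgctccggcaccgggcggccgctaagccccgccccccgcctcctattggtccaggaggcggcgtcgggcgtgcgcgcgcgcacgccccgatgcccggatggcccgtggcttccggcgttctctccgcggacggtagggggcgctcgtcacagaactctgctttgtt

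The half-sites of Cdkn1a begin 73 and 51 bases before the upstream one of its starts, and the window at its other start had no perfect match. The half-site of Mdm2 begins 186 bases before its start. It is the only perfect match in that window, not a pair, and sequence outside the windows was not searched. The half-sites of the other members with full values below are shown with 10 bases on each side, since they let the letters within the pattern be compared.
Trp53, chr11:69580274-69580303, plus strand: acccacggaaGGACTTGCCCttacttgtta
Ckap2, chr8:22186003-22186032, minus strand: ctgtgtctgaAGACATGTCCtgacttgtca
Gadd45a, chr6:67037428-67037457, minus strand: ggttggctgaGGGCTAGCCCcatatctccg
Ccng1, chr11:40755452-40755481, minus strand: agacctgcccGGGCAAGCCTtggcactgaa
Aen, chr7:78895927-78895956, plus strand: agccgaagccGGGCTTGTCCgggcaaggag
The remaining members with a match were Abhd4, Ei24, Ier5, Polk, Ppm1d and Sesn1. These, Gadd45a and Ccng1 did not separate old from young libraries below. Plk2, Plk3, Gadd45b, Phlda3, Trp53inp2, Dram1 and Gdf15 did, and had no perfect match in their windows.

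**Figure D1:**
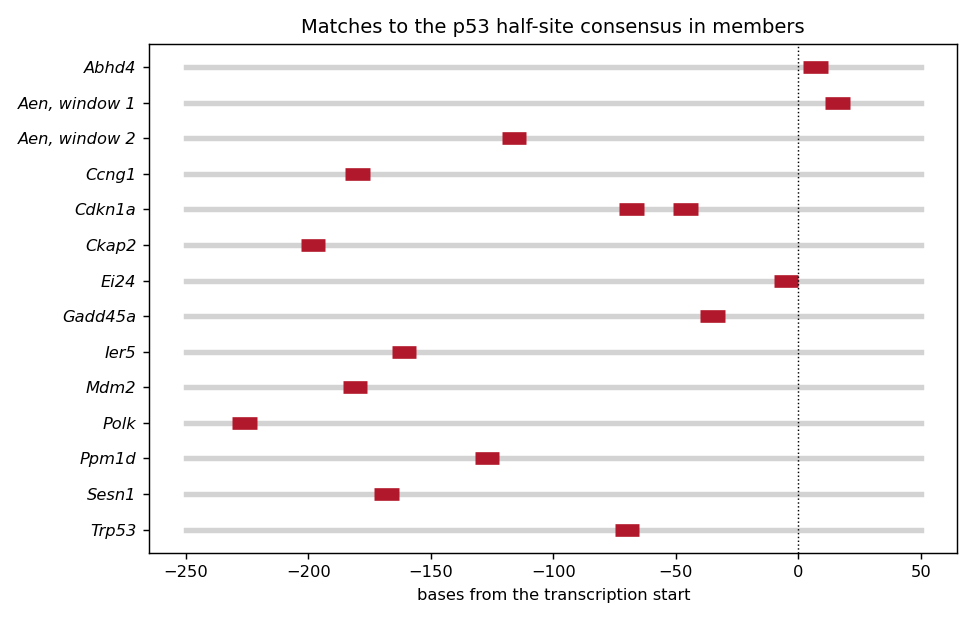
Positions of perfect matches to the p53 half-site consensus in the promoter windows of the 13 members that hold one; the horizontal axis gives bases from the transcription start, grey bars the 300-base windows and red bars the matches. Cdkn1a holds 2 matches, which do not adjoin, at 73 and 51 bases before its upstream start. Abhd4 and the first window of Aen hold theirs just after the start. Starts are RefSeq's, and some lie inside the span of the gene in the expression table.

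Before the members are described, 1 library has to be set apart. Young replicate 1 correlated at 0.949 and 0.962 with young replicates 2 and 3, which correlated at 0.996 with each other, and at 0.959 to 0.968 with old libraries (Pearson's r over genes on the log2 scale; genes are not independent replicates). Depth was 75456146 to 84535939 recovered reads in old libraries and 64881180 to 82917726 in young ones, the lowest in young replicate 1. Among tested genes young replicate 1 was the lowest of the 6 libraries for 48.2% and the highest for 28.8%, and its difference from young replicates 2 and 3 ran with gene length (Spearman's rho of -0.355 across 12015 genes). Mitochondrial genes took 1.69, 1.62 and 1.89% of reads in old and 1.05, 2.13 and 2.29% in young libraries, again lowest in young replicate 1. The part of these differences in the results was not tested, and the main comparisons below are given with this library and without it. Of 10 osteoblast markers, Col1a1 averaged 1528 ± 31.9 RPKM in old and 1550 ± 424 RPKM in young libraries, while Alpl and Bglap stayed under 1 RPKM in every library. Sp7, an osteoblast transcription factor, fell, at 4.90 ± 0.0281 RPKM in old and 8.44 ± 0.567 RPKM in young, and Spp1, which encodes osteopontin, rose, at 731.9 ± 68.6 RPKM in old and 290.4 ± 75.9 RPKM in young (SD, n = 3 each; limma adjusted p = 0.0186 and 0.0307). Both calls were lost without any 1 of the old libraries, without young replicate 3, or with the replicate number as a block. That of Spp1 was also lost without young replicate 2, with no filter on low values, and under scaling by median of ratios or upper quartile. The part of osteoblast maturity in the values below was not tested. The summed level of 8 macrophage and leukocyte markers was 9.23 to 10.6 RPKM in old and 8.28 to 9.59 RPKM in young libraries, most of it Lyz2, with Ptprc at 0 in 4 of the 6 libraries. The endothelial, adipocyte and erythroid markers summed to under 0.16 RPKM in each library. Summed chondrocyte markers, mostly Col2a1, were 53.4 to 57.1 RPKM in old and 34.8 to 73.6 RPKM in young libraries, and the part of such cells in the values below was not tested.

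With all 6 libraries, transcripts of Mdm2, Plk2, Plk3, Gadd45b, Cdkn1a and Phlda3 were higher and those of Ckap2 and Trp53inp2 lower in old than in young libraries by the unadjusted test, and none of the 31 tested members passed at an adjusted p under 0.05. Limma on log2(RPKM + 1), adjusted by the Benjamini-Hochberg method over all genes tested, called 1.57% of the 12015 genes, 177 higher (1.47%) and 12 lower (0.0999%). At an unadjusted p under 0.05 it took 8 members, 6 higher and 2 lower, against 11.2% of all tested genes (5.98% higher and 5.25% lower). Old and young libraries did not overlap for 11 members, 9 with old above and 2 with old below, against 20.8% of tested genes (10.6% above and 10.2% below). Plk3, which met the level for the test through the old group alone, is counted among the 6 higher and the 9 above. The median log2 fold change was 0.08 over the tested members and 0.01 over all tested genes, and without young replicate 1 it was 0.0028 over the members and -0.05 over all tested genes. Limma-voom on the recovered reads also called 0 members, against 1.41% of tested genes (1.35% higher and 0.0666% lower).

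Without young replicate 1, 8 members were called higher and 5 lower in old, against 32.6% of all tested genes (13.2% higher and 19.4% lower). The higher ones were Trp53, Mdm2, Cdkn1a, Plk2, Plk3, Gadd45a, Gadd45b and Dcxr, and the lower ones Mdm4, Sesn1, Trp53inp2, Ei24 and Ckap2. Of these, Plk3 met the level for the test through the old group alone. That fit rests on 2 young libraries that are nearly alike, and so large a share of all tested genes passed in it that a call there is not particular to these genes. Leaving out any other single library gave 0 called members.

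**Figure D2:**
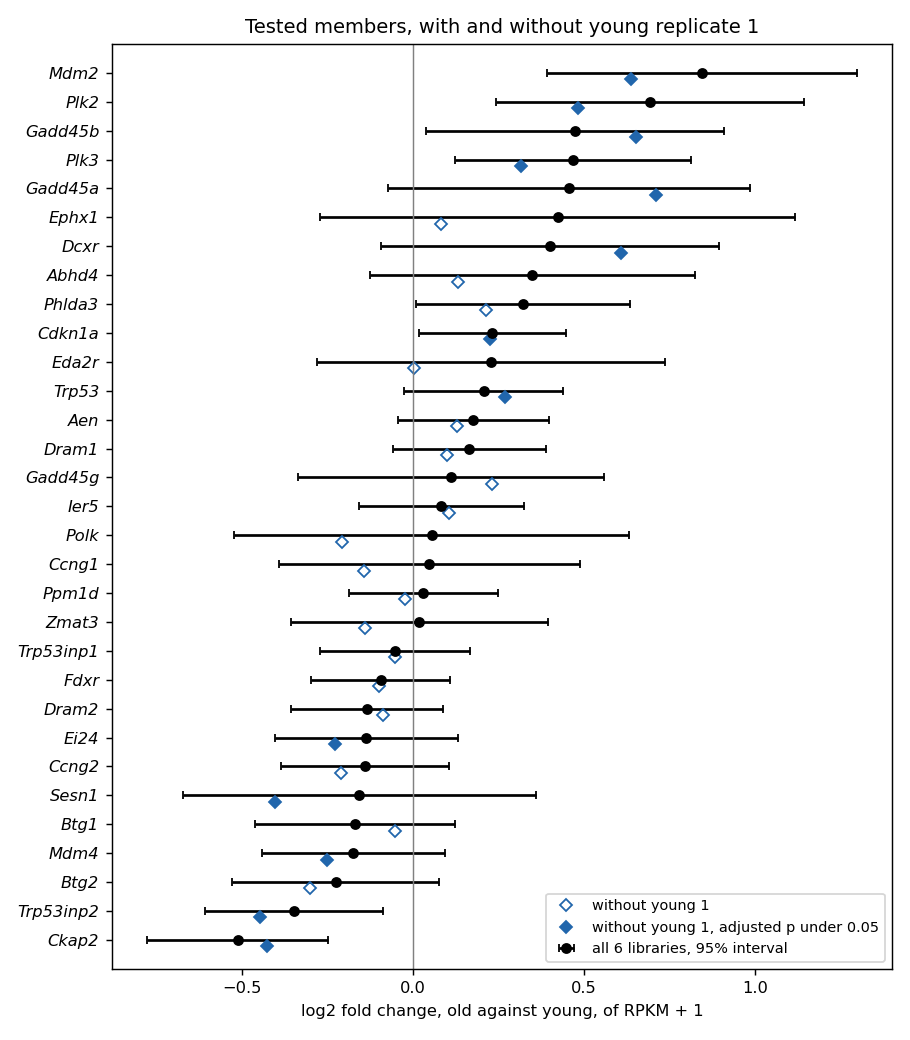
Log2 fold change of RPKM + 1, old against young, for the 31 tested members; black points and bars show the fit with all 6 libraries and its 95% interval, and blue diamonds the fit without young replicate 1, filled where the adjusted p was under 0.05. Mdm2 lies at the top with 0.85 and Ckap2 at the bottom with -0.51, and the diamonds of Gadd45a, Gadd45b and Dcxr lie to the right of the black points while those of Mdm2, Plk2 and Ephx1 lie to the left.

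The core of the loop was led by Mdm2, the ubiquitin ligase that marks p53 for destruction. Mdm2 had 72.7, 77.7 and 75.2 RPKM in old replicates 1, 2 and 3, against 30.8, 50.5 and 45.6 RPKM in young replicates 1, 2 and 3. The old libraries lay close together and far above every young one, and young replicate 1 was the lowest of all. The log2 fold change was 0.85 ± 0.19 (SE, 95% interval 0.39 to 1.30, limma adjusted p = 0.119), a ratio of mean RPKM of 1.78. Without young replicate 1 it was 0.64 ± 0.06 (limma adjusted p = 0.00121), so both the difference and its error were larger with that library. In bulk libraries more cells carrying a transcript and more transcript per cell cannot be told apart.

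Trp53 itself had 9.56, 8.96 and 8.78 RPKM in old libraries, against 8.54, 7.18 and 7.56 RPKM in young ones. The groups did not overlap, but young replicate 1 lay just below the lowest old library. The log2 fold change was 0.21 ± 0.10 (SE, 95% interval -0.03 to 0.44, limma adjusted p = 0.522), and without young replicate 1 it was 0.27 (limma adjusted p = 0.0186). Mdm4, the partner of Mdm2 that masks the activating part of p53, went the other way by its means, with 3.92 ± 0.290 RPKM in old and 4.56 ± 0.573 RPKM in young libraries (SD, n = 3 each). Young replicate 1, at 3.98 RPKM, lay among the old values of 4.11, 3.59 and 4.06 RPKM, below young replicates 2 and 3 at 5.12 and 4.59 RPKM. Within each library Mdm2 stood above Mdm4 per gene length by a factor of 17.7, 21.7 and 18.5 in old, against 7.73, 9.85 and 9.94 in young, with no overlap. Ppm1d, a phosphatase that switches p53 and its kinases off again, averaged 5.10 ± 0.0629 RPKM in old and 4.98 ± 0.415 RPKM in young libraries, with a log2 fold change of 0.03 (95% interval -0.19 to 0.25).

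**Figure D3:**
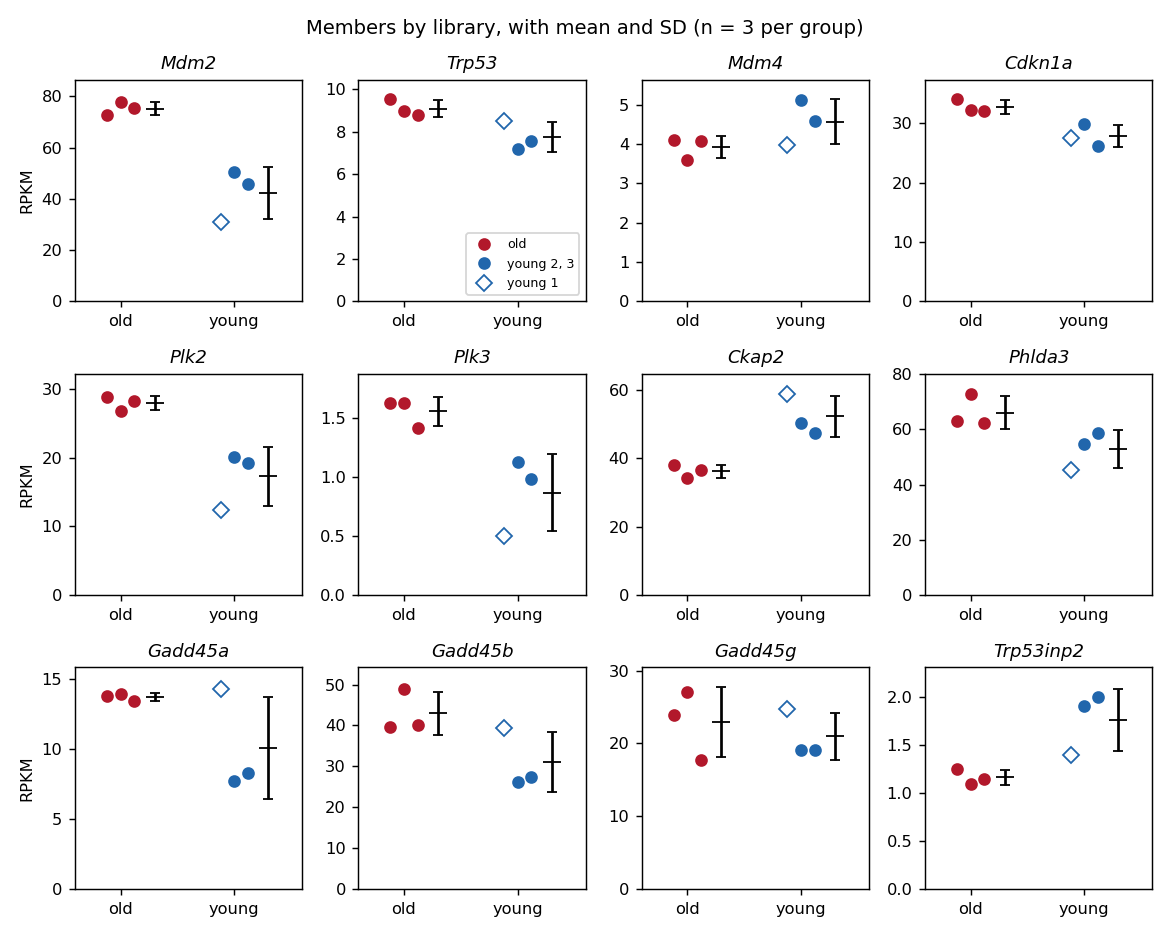
RPKM of 12 members in each library, with the group mean and SD to the right of the points; old libraries are red, young replicates 2 and 3 blue, and young replicate 1 an open diamond. Mdm2 and Plk2 show the old libraries in a tight group above a spread of young ones, Ckap2 shows them below, and Gadd45a shows young replicate 1 just above the old libraries.

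Of 10 tested members listed under cell cycle arrest and growth restraint, 3 lay wholly above and 1 wholly below in old libraries. Over all tested genes the shares were 10.6% above and 10.2% below. The 3 above were Cdkn1a, Plk2 and Plk3, and the 1 below was Ckap2, a protein of the mitotic spindle. Plk3 is counted here although it met the level for the test through the old group alone. Cdkn1a, the p53 target that halts cyclin-dependent kinases, had 34.2, 32.2 and 32.04 RPKM in old libraries, against 27.5, 29.8 and 26.2 RPKM in young ones. The difference was small but even, with young replicate 1 between the other young libraries. The log2 fold change was 0.23 ± 0.09 (SE, 95% interval 0.02 to 0.45, limma adjusted p = 0.398) and 0.22 without young replicate 1 (limma adjusted p = 0.0456), a call lost when the length trend was also removed (limma adjusted p = 0.118). Of the members past the unadjusted test, Cdkn1a had the smallest log2 fold change and the one that differed least when that library was left out. Its RPKM within a library was 0.470, 0.415 and 0.426 of that of Mdm2 in old, against 0.893, 0.591 and 0.574 in young.

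Plk2 and Plk3 encode polo-like kinases that respond to stress, in contrast to the mitotic kinase Plk1. Plk2 had 28.9, 26.8 and 28.2 RPKM in old libraries, against 12.4, 20.1 and 19.3 RPKM in young ones. Plk3, near the level at which genes entered the test, had 1.63, 1.63 and 1.42 RPKM in old, against 0.499, 1.13 and 0.986 RPKM in young. Both put every old library above every young one, with young replicate 1 lowest, as for Mdm2. The log2 fold changes were 0.69 ± 0.19 for Plk2 and 0.47 ± 0.14 for Plk3 (SE, limma adjusted p = 0.202 and 0.277), and 0.48 and 0.32 without young replicate 1 (limma adjusted p = 0.0022 and 0.0201). At its low level the value of Plk3 depended on the pseudocount, with 0.84 at a pseudocount of 0.1 and 0.89 by limma-voom (limma adjusted p = 0.340 and 0.299).

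Ckap2, a microtubule-associated protein of the mitotic spindle that is also a p53 target, ran opposite to them. It had 37.9, 34.1 and 36.5 RPKM in old libraries, against 58.7, 50.4 and 47.4 RPKM in young ones. It had the smallest p-value of the 31 tested members, with a log2 fold change of -0.51 ± 0.11 (SE, 95% interval -0.78 to -0.25, limma adjusted p = 0.107). Without young replicate 1, its highest library, it was -0.43 (limma adjusted p = 0.0054). Its window also holds the letters TTTGAA, the core of an element through which cell division genes are kept silent in resting cells, 101 bases before the start.

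The most abundant arrest gene, Ccng1, whose product, cyclin G1, brings a phosphatase to Mdm2, had 60.1, 57.4 and 63.6 RPKM in old libraries and 44.5, 72.2 and 61.6 RPKM in young ones. The young libraries enclosed the old ones, and the log2 fold change was 0.05 (95% interval -0.39 to 0.49) and turned to -0.14 without young replicate 1. The related Ccng2 averaged 1.84 ± 0.172 RPKM in old and 2.13 ± 0.283 RPKM in young libraries. Btg1 and Btg2, which slow growth through the machinery that shortens messenger RNA tails, averaged 18.3 ± 0.269 and 9.19 ± 1.20 RPKM in old and 20.9 ± 3.23 and 10.9 ± 1.082 RPKM in young. Zmat3, a zinc finger protein that binds RNA, averaged 2.05 ± 0.168 RPKM in old and 2.04 ± 0.586 RPKM in young, and Ier5, an immediate-early gene, 7.82 ± 0.831 RPKM in old and 7.30 ± 0.242 RPKM in young (SD, n = 3 each). None of these 6 separated the groups.

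The Gadd45 family, small proteins that bind the stress kinase MTK1, p21 and the replication clamp, differed most with young replicate 1 in Gadd45a. Gadd45a had 13.8, 13.9 and 13.4 RPKM in old libraries, against 14.3, 7.70 and 8.27 RPKM in young ones. Young replicate 1 was the highest of all, while the other young libraries lay far below the old. The log2 fold change was 0.46 ± 0.22 with it and 0.71 without it (limma adjusted p = 0.546 and 0.000453), the smallest p-value of any member in that second fit. Gadd45b had 39.7, 48.9 and 40.2 RPKM in old, against 39.4, 26.2 and 27.4 RPKM in young. Its groups did not overlap, but young replicate 1 lay just short of the lowest old library. Its log2 fold change was 0.47 ± 0.18 with young replicate 1 and 0.65 without it (limma adjusted p = 0.396 and 0.00548). Gadd45g had 23.9, 27.1 and 17.7 RPKM in old, against 24.7, 19.1 and 19.1 RPKM in young, and its groups overlapped in either reading (limma adjusted p = 0.963 and 0.289). In all 3 genes young replicate 1 was nearer to the old mean than to young replicates 2 and 3, which was so for 67.4% of tested genes. Gadd45a shares 19.1% of its exonic bases with E230016M11Rik on the opposite strand, at most 1.13 RPKM in any library, and since the use of strand in counting is not given, reads of the 2 cannot be told apart. TATAAA, searched on both strands, lies 46 bases before the start of Gadd45b and 27 before that of Gadd45g. It lay in 15.8% of member windows, 13.6% of all windows and 6.57% of those of tested genes.

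Members that act in death and survival were of mixed level. Phlda3, which competes with the survival kinase Akt for membrane lipids, had 63.1, 72.9 and 62.2 RPKM in old libraries, against 45.2, 54.8 and 58.6 RPKM in young ones, with young replicate 1 lowest. The log2 fold change was 0.32 ± 0.13 (SE, limma adjusted p = 0.431), and 0.22 without young replicate 1 (limma adjusted p = 0.078), so it was called in neither fit. Aen, a nuclease that p53 raises in dying cells, had 31.8, 35.3 and 32.7 RPKM in old, against 27.4, 30.6 and 29.96 RPKM in young. These groups did not overlap either, with a log2 fold change of 0.18 (95% interval -0.04 to 0.40).

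Ei24, a protein of the endoplasmic reticulum membrane, averaged 9.39 ± 0.214 RPKM in old and 10.5 ± 1.35 RPKM in young libraries and was called lower without young replicate 1 (log2 fold change -0.23, limma adjusted p = 0.0345). It shares 6.66% of its exonic bases with Gm26787 on the opposite strand, at most 3.115 RPKM in any library, and reads of these genes cannot be told apart there. Eda2r, a receptor of the tumour necrosis factor family, had 2.36, 2.07 and 2.32 RPKM in old, against 1.03, 2.63 and 1.89 RPKM in young, the widest relative spread of any tested member among the young libraries (coefficient of variation 43.3%). Abhd4, a lipase of membrane phospholipids, averaged 5.12 ± 0.232 RPKM in old and 3.91 ± 1.23 RPKM in young. Perp, a membrane protein of cell junctions, had 0, 0 and 4 recovered reads in old and 2, 4 and 0 in young libraries, at or near the floor of 3 reads. Pidd1, which assembles the platform that activates caspase 2, averaged 0.949 ± 0.0998 RPKM in old and 0.735 ± 0.161 RPKM in young libraries and overlapped.

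Of the 4 autophagy members, 1 lay wholly above and 1 wholly below in old libraries, against 10.6% above and 10.2% below over all tested genes. Trp53inp2, which shuttles from nucleus to autophagosome, had 1.25, 1.10 and 1.15 RPKM in old libraries, against 1.40, 1.91 and 2.00 RPKM in young ones. Each old library lay below each young one, and young replicate 1 was nearer to the old side. The log2 fold change was -0.35 ± 0.11 (SE, limma adjusted p = 0.285) and -0.45 without young replicate 1 (limma adjusted p = 0.0053), and -0.55 with all 6 libraries at a pseudocount of 0.1. Trp53inp1, its relative and a cofactor of p53, averaged 3.02 ± 0.25 RPKM in old and 3.17 ± 0.194 RPKM in young and overlapped. Dram1, a lysosomal membrane protein that p53 induces, had 14.8, 14.4 and 14.9 RPKM in old, against 11.8, 13.7 and 13.6 RPKM in young, without overlap but with a log2 fold change of 0.17 (95% interval -0.06 to 0.39), and of 0.10 without young replicate 1 (limma adjusted p = 0.156). Dram2 averaged 0.971 ± 0.0402 RPKM in old and 1.17 ± 0.207 RPKM in young and overlapped.

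The metabolic members included the most abundant of the 35. Ephx1, which hydrolyses reactive epoxides, had 132.7, 123.4 and 131.2 RPKM in old libraries, against 59.3, 125.3 and 118.6 RPKM in young ones. Young replicates 2 and 3 lay within or just below the old values and young replicate 1 far below, and the log2 fold change was 0.42 ± 0.29 with it and 0.08 without it (limma adjusted p = 0.755 and 0.291). Sesn1, which restrains growth signalling through mTORC1, had 8.41, 7.69 and 8.59 RPKM in old, against 6.31, 11.2 and 11.2 RPKM in young. Without young replicate 1 it was called lower (log2 fold change -0.40, limma adjusted p = 0.00641), and with it the groups overlapped (-0.16, limma adjusted p = 0.947). Dcxr, a reductase of sugars and dicarbonyls, had 10.8, 11.3 and 10.8 RPKM in old, against 11.02, 5.82 and 7.99 RPKM in young, and was called higher without young replicate 1 (0.61, limma adjusted p = 0.011). Fdxr, which passes electrons to mitochondrial cytochromes, averaged 3.72 ± 0.134 RPKM in old and 4.04 ± 0.226 RPKM in young and overlapped.

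Polk, a polymerase that copies past DNA lesions, averaged 4.998 ± 0.588 RPKM in old and 4.95 ± 1.77 RPKM in young libraries. Rrm2b, the p53-induced subunit of the enzyme that makes deoxynucleotides, averaged 0.777 ± 0.0771 RPKM in old and 0.845 ± 0.406 RPKM in young, and both overlapped. Gdf15, a secreted stress cytokine, had 0.939, 1.10 and 1.19 RPKM in old libraries, against 0.499, 0.341 and 0.521 RPKM in young ones, from 147, 154 and 178 recovered reads against 60, 49 and 80. It was the member with the largest ratio of means, 2.37, and did not overlap, but only 2 libraries reached 1 RPKM, so it did not enter the main test. With no filter on low values its log2 fold change was 0.52 ± 0.09 (SE, limma adjusted p = 0.115), a value that the added 1 RPKM compresses at this level.

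**Figure D4:**
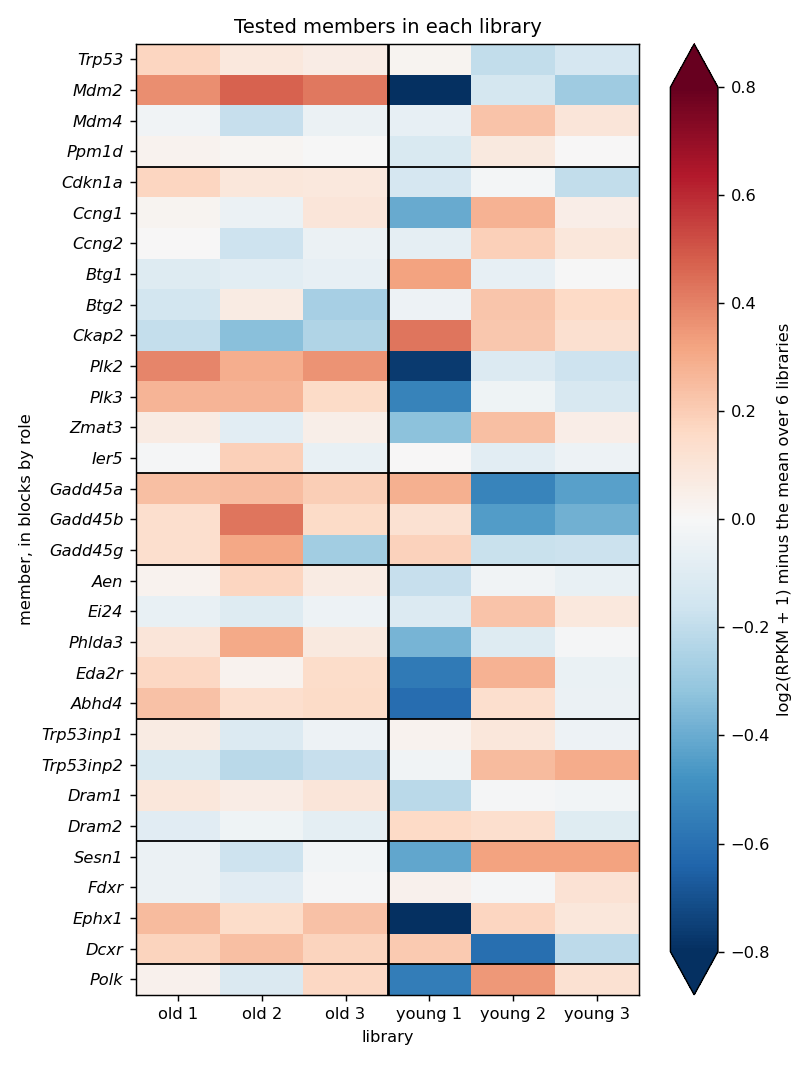
Log2(RPKM + 1) of each of the 31 tested members in each library, less its mean over the 6 libraries, in blocks by role from the core regulators at the top to Polk at the bottom. Young replicate 1 is the darkest blue column for Mdm2, Plk2, Ephx1, Abhd4 and Eda2r and red for Gadd45a, Ckap2 and Btg1, while the old libraries resemble each other in nearly every row.

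The spread among libraries was uneven between the groups. The median coefficient of variation of the tested members was 5.23% over old and 15.5% over young libraries, and 5.03% over young replicates 2 and 3. Over all tested genes these medians were 5.79%, 20.3% and 5.52%, and the young libraries varied more than the old for 27 of 31 members and for 87.8% of tested genes. Young replicate 1 was the lowest of the 6 libraries for 15 members and the highest for 4.

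The members are spread over many chromosomes and differ in gene size, from an exonic length of 1144 bases for Dcxr to 14798 for Mdm4. Their median exonic length was 3279 bases, against 3412 for all tested genes. Across the 31 tested members the log2 fold change with all 6 libraries ran against gene length, with Spearman's rho of -0.471, where it was -0.062 across all 12015 tested genes. Without young replicate 1 it was -0.523 across the members and -0.299 across all tested genes, so a relation with length was not limited to the members. The shorter members Dcxr, Gadd45b, Gadd45a, Phlda3 and Ephx1 had positive values and the longer members Trp53inp2, Ccng2 and Mdm4 negative ones, while the long members Mdm2, Aen, Eda2r and Zmat3 had positive ones. The members share libraries, depth and annotation in this relation. After each library's trend on gene length was removed, Mdm2 had a log2 fold change of 0.86 and Ckap2 of -0.51 (limma adjusted p = 0.0607 and 0.0656), and 0 members were called.

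Other genes of the pathway were read from the same fit in lists written by role. Of 15 tested enzymes and adaptors upstream of p53, 1 rose and 0 fell: Daxx, a chaperone that links Mdm2 to the enzyme that stabilises it, averaged 31.3 ± 1.74 RPKM in old and 20.2 ± 1.40 RPKM in young libraries (SD, n = 3 each; log2 fold change 0.61 ± 0.09 SE, limma adjusted p = 0.0391). Limma-voom did not call Daxx. The median of that list was -0.02, and -0.08 without young replicate 1. Of 7 tested targets of p53 in the death machinery, Fas, the death receptor, rose, at 10.3 ± 0.811 RPKM in old and 5.85 ± 0.621 RPKM in young (log2 fold change 0.72 ± 0.11 SE, limma adjusted p = 0.0335), and the list median was 0.15, and 0.29 without young replicate 1. Bid and Bbc3, named here after their values were seen as the other 2 death targets past the unadjusted test, had log2 fold changes of 0.45 and 0.34 (limma adjusted p = 0.108 and 0.193), while Bax averaged 93.2 ± 6.35 RPKM in old and 87.6 ± 7.67 RPKM in young, with groups that overlapped. Of 16 tested further targets none was called by limma, 3 were past an unadjusted p of 0.05, all higher, against 5.98% of tested genes, and limma-voom also called 0. Among those of smallest p, Sfn, Slc19a2 and Rap2b had log2 fold changes of 0.36, 0.33 and 0.20 (limma adjusted p = 0.412 to 0.485). Trp63, a relative of p53, averaged 3.40 ± 0.287 RPKM in old and 2.05 ± 0.13 RPKM in young (log2 fold change 0.53 ± 0.09 SE, limma adjusted p = 0.0552, and 0.0379 by limma-voom), and Trp73 was at or near 0 in every library.

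Cell division genes that are known to fall when p21 is high were lower by their means in old libraries. All 14 had negative log2 fold changes, with a median of -0.38, and 11 lay wholly below in old libraries, against 10.2% of tested genes. This list was chosen with earlier results of these data known, and the part of p21 or p53 in its values was not tested. Ccnb2, a mitotic cyclin, and Cenpa, the histone of the centromere, fell, to 21.6 ± 0.901 and 10.5 ± 1.13 RPKM in old libraries against 31.9 ± 1.30 and 17.2 ± 1.09 RPKM in young ones (SD, n = 3 each; limma adjusted p = 0.0391 and 0.0462). The letters TTTGAA, on either strand, lay in the windows of 8 of the 11 list genes that had one, Ccnb2 and Cenpa included, and of 5 of 31 members, among them Ckap2. In all windows their share was 17.9%. By gene it was 72.7% in the list and 16.1% in the members. Over all genes with a window it was 20.2%, and over tested ones 14.3%. None of these matches overlapped a p53 half-site in the members. The calls of Daxx, Fas, Ccnb2 and Cenpa were each lost without any 1 of the old libraries or of young replicates 2 and 3, and under scaling by median of ratios or upper quartile.

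**Figure D5:**
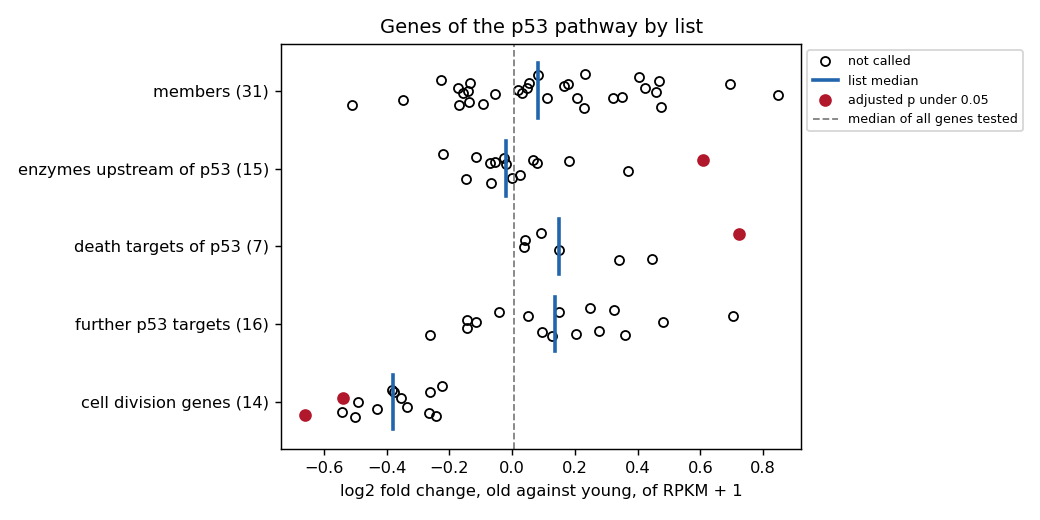
Log2 fold change of RPKM + 1, old against young, for the tested genes of 5 lists, with 1 point a gene, red where the adjusted p was under 0.05, a blue bar at the list median and a dashed line at the median of all tested genes. The members spread from -0.51 to 0.85 around a median of 0.08, and all 14 cell division genes lie left of the dashed line.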

How the data were processed

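Messenger RNA libraries of ultraviolet-killed osteoblasts, 3 from old and 3 from young mice, were analysed from 1 table in which the authors deposited RPKM per gene with exon positions and gene lengths. Per the submitters' processing notes, fastp, STAR, HTSeq, edgeR and the build mm10 were used, and the sources used here give no versions, parameters, annotation or use of strand. Each library's RPKM times gene length summed to 1000000, and 100% of values came out as whole reads within 0.01. Of genes with 1 to 5 reads, 77.5 to 79.3% had an even number, so reads are not independent counts and floors cover counting error only. In a gene of 1 kilobase, 3 reads are 0.0355 to 0.0462 RPKM. Chi-square per degree of freedom between replicates was 9.5 to 482.6, so no library copied another.

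Genes with at least 1 RPKM in at least 3 libraries entered a limma fit (version 3.58.1, R 4.3.3) of log2(RPKM + 1) on age group, moderated with an intensity trend. The fit was tested on simulated data. Tests were two-sided and adjusted by the Benjamini-Hochberg method. Fold changes are old against young, and the pseudocount of 1 understates those of low genes. Members, lists and roles were chosen with earlier results of these data known. Full values are given for Trp53, Mdm2 and Cdkn1a, for members past an unadjusted p of 0.05 or without overlap, for the 3 most abundant and for the Gadd45 family; from other lists, called genes or else up to 4 of smallest p, of which 1 is not reported here; Mdm4, Sesn1, Dcxr, Eda2r and Gdf15 were added after their values were seen. Promoter windows are RefSeq's on GRCm38.p6, whose starts equal the table's mm10 starts for Cdkn1a, Mdm2, Trp53 and Ckap2. Other starts can differ. The half-site matches of Abhd4, Aen, Ei24, Gadd45a, Polk and Sesn1 lie inside the span that the table gives the gene. Alternatives were other pseudocounts, filters, scalings, variance models, weights, thresholds, a length correction, limma-voom, a replicate block and leaving out each library.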

Additional observations from a re-analysis of the deposited data

How the results depend on the processing

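The count of called members was 0 higher and 0 lower in the main comparison and in every alternative, except that library weights gave 9 and 6, leaving out young replicate 1 gave 8 and 5, and leaving it out with the length trend also removed, chosen after seeing the data, gave 8 and 5, with Aen in place of Cdkn1a and Btg2 in place of Mdm4. Over all tested genes the main 177 higher and 12 lower became 2119 and 2957 with library weights and 1566 and 2028 with the length trend removed and young replicate 1 left out. They were 99 higher at a mean RPKM of at least 5, 26 lower with the length trend removed, 62 lower at an adjusted p under 0.1, and 80 to 1589 higher and 0 to 2329 lower when 1 library was left out. The lists' 2 higher and 2 lower calls became 0 and 1 with no filter, 0 and 1 with quantile normalization, and 1 and 0 with scaling by median of ratios or upper quartile, where the call was Trp63 and both Daxx and Fas were lost. With limma-voom the 2 higher calls were Fas and Trp63. The lower calls were 1 with robust moderation, 0 with limma-voom and 4 at an adjusted p under 0.1. The lists had 11 higher and 22 lower calls with library weights, 11 and 19 with the length trend removed and without young replicate 1, and 0 to 10 and 0 to 20 when 1 library was left out. The cause was not tested.

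Ccng1 turned to -0.0036 with quantile normalization, -0.059 with library weights, -0.14 without young replicate 1 (-0.14 to 0.20 when 1 library was left out) and -0.14 with the length trend also removed. Gadd45g turned to -0.016 without old replicate 2 (-0.016 to 0.28 when 1 library was left out). The other 13 members with full values kept their direction in every alternative run. With the replicate number as a block, 82 genes were higher and 0 lower, and 0 members and 0 list genes were called. The deviations of same-numbered libraries correlated at -0.026, -0.436 and 0.329. Those of libraries with unlike numbers correlated at -0.417 to 0.431, so the check cannot decide whether the numbers pair samples. A test with a count package was planned and was not run, and limma-voom on the recovered reads was run in its place. Plk3 and Trp53inp2 had no value at a mean RPKM of at least 5, and Perp is near the floor.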
